A study of Mus musculus with 8 samples.

Results

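The genes examined were 9 members of Toll-like receptor signalling in blood, namely Tlr1, Tlr2, Tlr4, Tlr6, Tlr7, Tlr8, Tlr9, Tlr13 and the adaptor gene Myd88. They were taken as every probe set of the array whose annotation named one of these symbols and no other gene, which gave 14 probe sets of the 45101 on the array and 9 genes of the 18193 with such a probe set. A probe set is a group of short oligonucleotides on a GeneChip that together report 1 transcript. Of the 14 probe sets, 12 passed the filter on dim signals, and 8 of the 9 genes kept at least 1 probe set. The question was whether the blood level of these transcripts differed after repeated restraint stress (RST), and whether receptors of the cell surface differed from those of the endosome.

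Whole blood was taken on Day 7 from 4 mice that had been held in ventilated tubes for 6 h per day (RST) and from 4 control mice. All were female C57BL/6J mice with a labelled age of 6 to 8 weeks, which the methods give for their purchase, before acclimation, and the controls had no food or water while the others were restrained but were otherwise left alone, so both groups shared the daily fast. From each animal 30 ng of RNA was amplified, labelled with biotin and hybridised to 1 Mouse430_2 GeneChip. Each replicate was a separate mouse, and no gene was deleted or introduced.

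Toll-like receptors are sensors of the innate immune system that recognise molecules of microbes. TLR1, TLR2, TLR4 and TLR6 act at the cell surface on lipids and lipoproteins of microbial envelopes, whereas TLR7, TLR8, TLR9 and TLR13 act in endosomes on nucleic acids. All of these receptors signal through the adaptor MyD88, which recruits IRAK kinases and leads to activation of NF-kB and of interferon regulatory factors, and in blood the receptors are found mainly on neutrophils, monocytes, dendritic cells and B cells.

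None of the 12 tested probe sets differed between RST and control mice after adjustment for multiple testing. Mean levels of 10 of the 12 were lower in RST blood and 2 were higher, where 65.3% of all 25084 tested probe sets had a lower RST mean. The largest differences were those of Tlr1, with a mean 2.42-fold lower in RST mice, Myd88 with a mean 2.09-fold lower and Tlr7 with a mean 1.96-fold lower. Before adjustment (p under 0.05, more than 1.5-fold), limma called 2 of the 12 lower, the Tlr1 probe set and 1 of the 3 Tlr7 probe sets, and none higher. The same thresholds called 13.3% of all tested probe sets, 10.4% lower and 2.89% higher, so the share among the members lay near that of the array as a whole. The Tlr7 probe set called, 1419848_x_at, had passed the filter only through the control arrays, in which it was high, and its call was lost in 12 of 21 alternatives and in 7 of the 8 that left out 1 mouse. No tested member separated the groups without overlap, against 7.99% of all tested probe sets (5.76% lower and 2.23% higher in RST), and with adjusted p under 0.05 limma called 0% of the array. In whole blood, fewer cells of a type and less RNA per cell cannot be told apart.

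**Figure D1:**
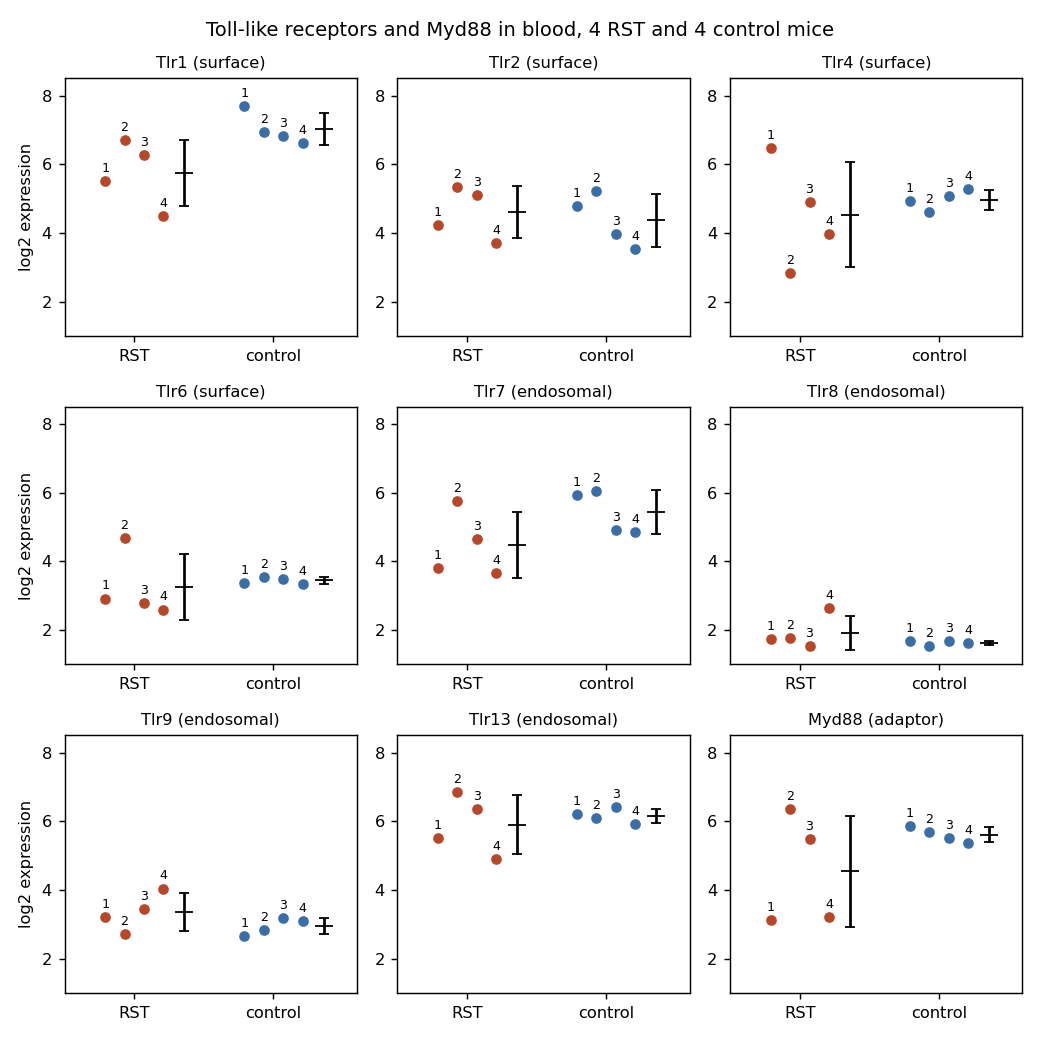
Log2 expression of the 9 genes in each of 4 RST mice (red, left) and 4 control mice (blue, right), each gene at its brightest tested probe set, or its own probe set for Tlr8; numbers beside the points name the mouse, and black bars give the mean ± SD. RST mice 1 and 4 lie at 3.12 and 3.22 for Myd88, below all control mice, while RST mice 2 and 3 lie at 6.35 and 5.47.

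Several properties differed between single arrays, while the ranges of the groups overlapped. The upper quartile of log2 values was 4.5 on the array of RST mouse 4 and 5.06 to 5.19 on the other RST arrays, against 5.13 to 5.37 on the control arrays, and RST mouse 4 was the lowest of all 8 animals for 41.6% of tested probe sets. Spiked hybridization controls averaged 12.35 to 12.73 on the RST arrays and 11.9 to 12.74 on the control arrays, with control mice 1 and 2 the lowest. Arrays correlated with r of 0.88 to 0.96 within groups and 0.86 to 0.95 between groups. Values without RST mouse 4 or without control mice 1 and 2 are given for several members, and fits with the hybridization controls as a covariate for Tlr1, Tlr7 and Myd88. The part of the low upper quartile of RST mouse 4 in the results was not tested beyond leaving that mouse out.

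Among the surface receptors, Tlr1 showed the largest difference. Its product pairs with TLR2 to bind triacylated lipoproteins of bacteria. Probe set 1449049_at gave log2 levels of 5.51, 6.71, 6.27 and 4.5 in RST mice 1 to 4, against 7.7, 6.95, 6.83 and 6.62 in control mice 1 to 4. The groups overlapped through RST mouse 2 alone, which lay above control mouse 4, and RST mouse 4 was the lowest animal. The mean was 5.75 ± 0.97 in RST mice and 7.02 ± 0.47 in control mice (SD, n = 4 each). The log2 fold change was -1.27 with a standard error of 0.45 and a 95% confidence interval of -2.26 to -0.29 (limma, unadjusted p = 0.0154, adjusted p = 0.321). A two-sided exact permutation test of the 4 against 4 mice gave p = 0.0571, where the smallest p that this design allows is 0.0286. The lower RST mean persisted without any single mouse, at -0.86 without RST mouse 4 and -1.6 without RST mouse 2. It was -0.97 without control mice 1 and 2, the arrays with the lowest hybridization controls (unadjusted p = 0.124, limma).

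Tlr2 encodes the shared partner of TLR1 and TLR6 in lipoprotein binding, and its group means lay close together, unlike those of Tlr1. Probe set 1419132_at read 4.22, 5.34, 5.11 and 3.72 in RST mice 1 to 4, against 4.78, 5.21, 3.96 and 3.52 in control mice 1 to 4. The ranges nearly coincided, with high and low animals in both groups, and the RST mice had the same order as for Tlr1. The log2 fold change was 0.23 with an interval of -0.75 to 1.22 (limma, adjusted p = 0.83) and allows a difference in either direction. Without control mice 1 and 2 it was 0.86, and without RST mouse 4 it was 0.52.

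Tlr6 encodes the partner of TLR2 for diacylated lipoproteins and is the neighbour of Tlr1 on chromosome 5 in the GRCm38.p6 annotation. Probe set 1421352_at read 2.92, 4.67, 2.8 and 2.6 in RST mice 1 to 4, against 3.38, 3.56, 3.5 and 3.34 in control mice 1 to 4. RST mouse 2 stood above every control and the other 3 RST mice below every control. The mean was 3.25 ± 0.96 in RST mice and 3.45 ± 0.1 in control mice (SD, n = 4 each), a log2 fold change of -0.2 (SE 0.41, limma adjusted p = 0.843). This probe set passed the filter only through the control arrays, of which 3 lay above their array's median, against 1 RST array. Without RST mouse 4 the difference was 0.02.

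Tlr4 encodes the receptor of bacterial lipopolysaccharide, and its 4 probe sets gave no common picture. The brightest, 1430695_at, was designed on an expressed sequence tag and read 6.46, 2.83, 4.89 and 3.97 in RST mice 1 to 4, against 4.92, 4.6, 5.08 and 5.28 in control mice 1 to 4. RST mouse 1 lay above and RST mice 2 and 4 below all control mice, giving a log2 fold change of -0.43 with an interval of -1.76 to 0.89 (limma, adjusted p = 0.759). Probe set 1418162_at, designed on the Tlr4 mRNA, read 3.07, 4.08, 3.8 and 3.24 in RST mice 1 to 4, against 4.04, 4.16, 4.04 and 4.08 in control mice 1 to 4. On it the control mice lay close together and RST mice 1, 3 and 4 lay below all of them, with a log2 fold change of -0.53 (SE 0.28, limma adjusted p = 0.407). Probe set 1418163_at, made on the same mRNA, showed a log2 fold change of -0.13 (SE 0.43, limma adjusted p = 0.908). The fourth, 1442827_at, did not pass the filter and differed by 0.02.

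**Figure D2:**
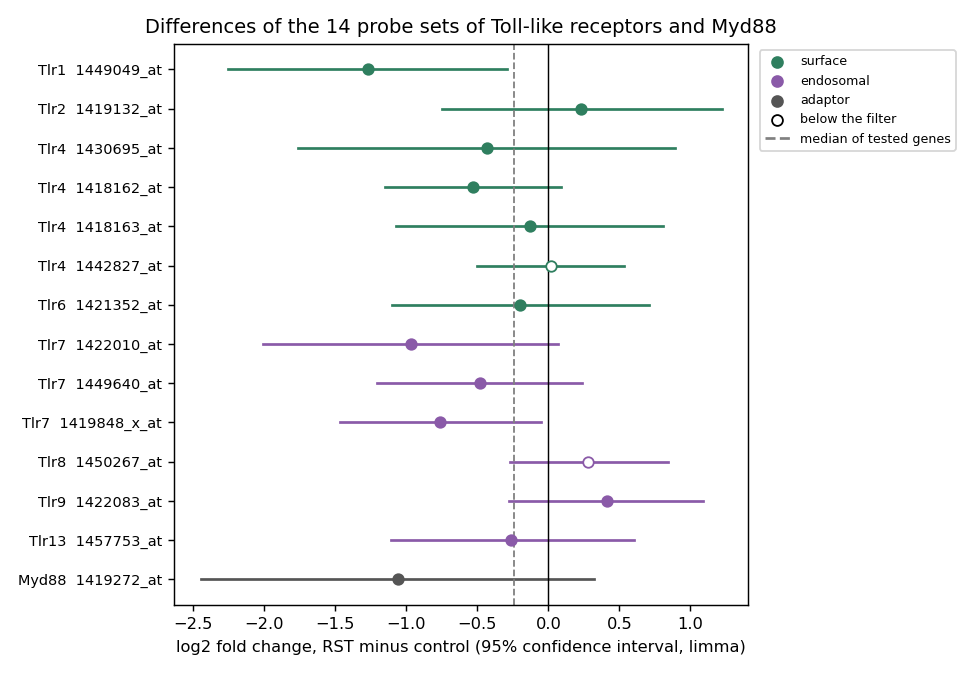
Log2 fold change, RST minus control, of all 14 probe sets with its 95% confidence interval from limma, coloured by class; open circles mark the 2 probe sets below the filter and the dashed line the median of all tested genes, -0.24. Only the intervals of Tlr1 and of Tlr7 probe set 1419848_x_at lie wholly below 0.

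Of the endosomal receptors, Tlr7 had the largest difference. Its product recognises single-stranded RNA and is prominent in plasmacytoid dendritic cells and B cells. Probe set 1422010_at read 3.8, 5.77, 4.65 and 3.67 in RST mice 1 to 4, against 5.93, 6.06, 4.91 and 4.85 in control mice 1 to 4. RST mice 1, 3 and 4 lay below every control mouse and RST mouse 2 among them. The mean was 4.47 ± 0.97 in RST mice and 5.44 ± 0.65 in control mice (SD, n = 4 each), and the log2 fold change was -0.97 with an interval of -2.01 to 0.07 (limma, unadjusted p = 0.0657, adjusted p = 0.385). Without RST mouse 2 it was -1.4, without RST mouse 4 it was -0.7, and without control mice 1 and 2 it was -0.41.

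The other 2 Tlr7 probe sets came from a single expressed sequence tag. Probe set 1419848_x_at read 3.23, 3.13, 4.39 and 3 in RST mice 1 to 4, against 4.24, 4.11, 4.14 and 4.31 in control mice 1 to 4. Here RST mouse 3 was the highest of all 8 animals while the other 3 RST mice were the lowest, and the log2 fold change was -0.76 (SE 0.32, limma unadjusted p = 0.0382, adjusted p = 0.35). It passed the filter through the controls, with 4 control arrays and 1 RST array above the array median, and an _x_at probe set may bind other transcripts. Probe set 1449640_at read 3.76, 3.3, 4.58 and 3.81 in RST mice 1 to 4, against 4.49, 4.82, 3.84 and 4.21 in control mice 1 to 4, with overlapping groups and a log2 fold change of -0.48 (SE 0.33, limma adjusted p = 0.51). The mouse with the highest RST value was thus RST mouse 2 on one probe set and RST mouse 3 on the other 2. With all 3 probe sets averaged, the Tlr7 difference was -0.74 (limma, unadjusted p = 0.0223, adjusted p = 0.287).

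Tlr8, which lies beside Tlr7 on chromosome X in the same annotation and whose human counterpart senses single-stranded RNA, was not above its array's median in any of the 8 samples. Probe set 1450267_at read 1.74, 1.76, 1.53 and 2.63 in RST mice 1 to 4, against 1.68, 1.54, 1.68 and 1.62 in control mice 1 to 4. Only RST mouse 4 stood apart, and in a fit of all probe sets without the filter the log2 fold change was 0.28 (limma, adjusted p = 0.697).

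Tlr9 encodes the receptor of unmethylated CpG DNA and was 1 of the 2 tested members with a higher RST mean. Probe set 1422083_at read 3.21, 2.71, 3.44 and 4.04 in RST mice 1 to 4, against 2.67, 2.83, 3.19 and 3.08 in control mice 1 to 4. RST mice 1, 3 and 4 lay above every control mouse and RST mouse 2 within their range. The log2 fold change was 0.41 with an interval of -0.28 to 1.09 (limma, adjusted p = 0.551). It passed the filter only through 2 RST arrays, since no control array was above its median, so a low level bounds what this probe set can show. Without control mice 1 and 2 the difference was 0.21.

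Tlr13 encodes a mouse receptor of bacterial ribosomal RNA. Probe set 1457753_at read 5.51, 6.84, 6.36 and 4.9 in RST mice 1 to 4, against 6.2, 6.1, 6.41 and 5.92 in control mice 1 to 4. RST mouse 2 was the highest and RST mice 1 and 4 the lowest of all animals, around control mice that differed little among themselves. The mean was 5.9 ± 0.87 in RST mice and 6.16 ± 0.2 in control mice (SD, n = 4 each), with a log2 fold change of -0.26 (SE 0.39, limma adjusted p = 0.781). Without RST mouse 4 the difference was 0.08.

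Myd88 encodes the adaptor on which all the receptors above converge and had the most divided values of any member. Probe set 1419272_at read 3.12, 6.35, 5.47 and 3.22 in RST mice 1 to 4, against 5.87, 5.68, 5.51 and 5.36 in control mice 1 to 4. RST mice 1 and 4 lay far below the control mice, RST mouse 3 among them and RST mouse 2 above them all. The mean was 4.54 ± 1.62 in RST mice and 5.61 ± 0.22 in control mice (SD, n = 4 each). The log2 fold change was -1.06 with a standard error of 0.63 and an interval of -2.45 to 0.32 (limma, unadjusted p = 0.119, adjusted p = 0.448; two-sided exact permutation p = 0.343). Leaving out RST mouse 4 gave -0.63 (limma, unadjusted p = 0.339, adjusted p = 0.707) and leaving out RST mouse 1 gave -0.59 (unadjusted p = 0.349, adjusted p = 0.711). Leaving out RST mouse 2, the highest animal, gave -1.67 (limma, unadjusted p = 0.00645, adjusted p = 0.181). This was the only 1 of 21 alternatives in which Myd88 passed the unadjusted threshold.

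The division of the RST mice recurred across the members. RST mice 1 and 4 were both below RST mice 2 and 3 in 7 of the 12 tested probe sets, against 31.7% of all tested probe sets on the array. They were both below every control mouse in 8 of the 12, against 25.2% of all. These 8 included every Tlr7 probe set. They also included Tlr6 and Tlr7 probe set 1419848_x_at, which passed the filter only through the control arrays. At 1 probe set per gene, both counts were 5 of 8 tested genes. RST mouse 2 was the highest RST animal in 8 of the 12, while RST mouse 2 was the highest of its group in 42.2% of all tested probe sets. Exceptions were Tlr4 probe set 1430695_at, in which RST mouse 1 was highest, Tlr9, in which RST mouse 4 was highest, and the 2 Tlr7 probe sets from an expressed sequence tag, in which RST mouse 3 was highest. The division was seen in these same values and the probe sets share their mice and arrays. These counts thus describe the 4 RST animals and carry no test.

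**Figure D3:**
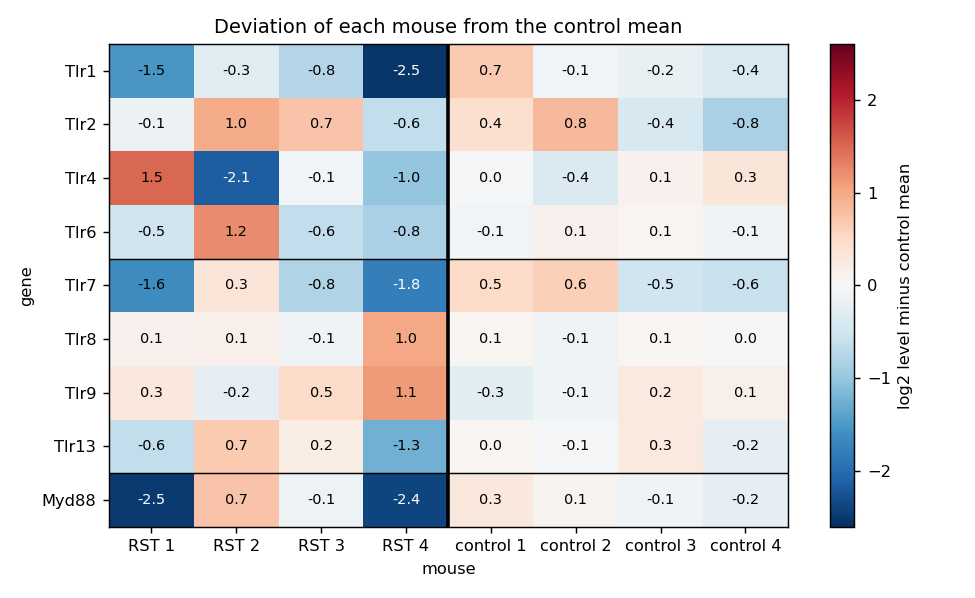
Log2 level of each gene in each mouse minus the mean of the 4 control mice, RST mice in the left 4 columns and control mice in the right 4, with surface receptors, endosomal receptors and Myd88 separated by lines. Tlr1, Tlr7, Tlr13 and Myd88 are below the control mean in RST mice 1 and 4, whereas Tlr9 is above it in both.

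Levels of white cell markers also varied between the groups and among the RST mice. For neutrophils, 10 of 10 measured markers were tested and 5 had a lower and 5 a higher RST mean. Before adjustment 3 were called lower and 0 higher, where 12.8% and 2.8% of all tested genes were called. The summed linear signal of the neutrophil markers ran from 4190 to 11800 in RST mice and from 7750 to 13600 in control mice. The mean deviation of these markers from the control mean was -1.21, 0.62, -0.79 and -1.37 log2 units in RST mice 1 to 4, with RST mouse 2 the highest RST animal as in Tlr1, Tlr2, Tlr6, Tlr13 and Myd88. In control mice 1 to 4 it was 0.86, -0.8, 0.17 and -0.23, while Myd88 read 5.87, 5.68, 5.51 and 5.36 there. For monocytes, 7 of 9 tested markers had a lower RST mean, where 67.6% of all tested genes had one. Of the 9, 2 were called lower before adjustment and 1 was lower without overlap. Their sums were 3910 to 6850 in RST mice and 4490 to 11300 in control mice. Monocyte markers deviated by -0.76, -0.04, 0.01 and -0.75 log2 units in RST mice 1 to 4, lower in mice 1 and 4 as in Myd88, Tlr1 and Tlr7. In control mice 1 to 4 they deviated by 0.2, 0.52, -0.06 and -0.66. Control mouse 4 was thus nearly as low as RST mice 1 and 4, while its Myd88 level was 5.36 against 3.12 and 3.22 in them. All 8 tested B cell markers had lower RST means at an unadjusted p under 0.05, 7 of them without overlap of the groups, where 12.8% of all tested genes were called lower and 6.57% were lower without overlap, and their sums were 1590 to 2090 in RST mice and 2670 to 5530 in control mice, while Pax5 did not pass the filter. Plasmacytoid dendritic cell markers summed to 278 to 363 in RST mice and 388 to 521 in control mice, with Pacsin1 below the filter. Of 7 tested, 1 was called lower and 1 was lower without overlap, beside the 12.8% and 6.57% above. Their mean deviations overlapped between the groups, at -0.64 to -0.19 log2 units in RST mice and -0.31 to 0.24 in control mice. Erythroid markers summed to 32000 to 33800 in RST mice and 25200 to 30000 in control mice. The part of cell composition in the receptor values was not tested.

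Surface and endosomal receptors were set side by side as classes, each gene at its brightest tested probe set, or its own untested probe set for Tlr8. The median log2 fold change was -0.32 over the 4 surface receptors, ranging from -1.27 for Tlr1 to 0.23 for Tlr2. It was 0.01 over the 4 endosomal receptors, ranging from -0.97 for Tlr7 to 0.41 for Tlr9. All 9 members had a median of -0.26 and all 11762 tested genes a median of -0.24. The endosomal value depended on Tlr8, which was below the filter, and was -0.26 over the other 3 genes, which leaves a difference between the classes of -0.06 in place of -0.33. With Tlr4 taken from the mRNA-based probe set 1418162_at the surface median was -0.37. Both of these changes of member were chosen after the values were seen.

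Within mice, the classes did not part by group either. The mean deviation of the surface receptors from their average over all 8 mice was 0.03, 0.15, 0.03 and -1.04 log2 units in RST mice 1 to 4, against 0.45, 0.34, 0.1 and -0.05 in control mice 1 to 4. For the endosomal receptors it was -0.41, 0.29, 0.02 and -0.17 in RST mice 1 to 4, against 0.14, 0.16, 0.07 and -0.11 in control mice 1 to 4. Without Tlr8, which was below the filter, the endosomal values were -0.54, 0.4, 0.1 and -0.51 in RST mice 1 to 4, against 0.22, 0.29, 0.13 and -0.09 in control mice 1 to 4, so RST mouse 4 was low in both classes. Both classes overlapped between groups, and the low surface value of RST mouse 4 stood beside a deviation of the median tested gene of -0.49 in that mouse. The surface values of RST mice 1 and 2 depended on the Tlr4 probe set used, 1430695_at, which read 6.46 and 2.83 in them. The mRNA-based probe set 1418162_at read 3.07 and 4.08 in these mice, the reverse order, and surface values per mouse were not computed with it. The surface minus endosomal difference averaged -0.14 ± 0.55 in RST mice and 0.14 ± 0.13 in control mice (SD, n = 4 each), and without Tlr8 it averaged -0.08 ± 0.47 in RST mice and 0.07 ± 0.11 in control mice, a spread among the RST animals wider than the gap between the means. No test was made of the class difference, because the members had been chosen with results of these data known.

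RST and control mice were also set side by side within subsets of arrays split by their hybridization controls. The first was the 3 arrays with the lowest controls (RST mouse 2 at 12.35, control mice 1 and 2 at 11.93 and 11.9), the second the other 5. The level of RST mouse 2 was nearer to that of control mouse 4 (12.6) than to that of control mouse 1 or 2. The first subset was thus not one of like controls. The first subset holds 1 RST mouse and both were chosen after the data were seen, so these values are a description without a test. Every RST value lay below every control value of its subset, in both subsets, for Tlr1 (mean difference -0.61 among the 3 arrays and -1.3 among the 5) and for Tlr7 probe set 1422010_at (-0.23 and -0.84), as for 12.5% of all tested probe sets. In both probe sets RST mouse 2 alone overlapped the controls before the split. The split set it beside control mice 1 and 2, which read higher. Among the other 5 arrays it would lie above control mouse 4 (6.71 against 6.62 for Tlr1, 5.77 against 4.85 for Tlr7). Both separations would then be lost. Of the other members without such separation, Tlr2 had a higher RST mean in both subsets (0.35 and 0.61), while Tlr4 probe sets 1430695_at (-1.93 and -0.07) and 1418162_at (-0.01 and -0.69) and Tlr7 probe set 1419848_x_at (-1.05 and -0.68) had a lower one in both. The sign differed between the subsets for Myd88 (0.58 and -1.5), Tlr13 (0.69 and -0.57), Tlr6 (1.2 and -0.65), Tlr9 (-0.04 and 0.43), Tlr4 probe set 1418163_at (-0.18 and 0.31) and Tlr7 probe set 1449640_at (-1.36 and 0.02). With the hybridization control level as a covariate, the log2 fold change of Tlr1 was -0.9 (limma, adjusted p = 0.61), that of Tlr7 was -0.33 (adjusted p = 0.818) and that of Myd88 was -0.63 (adjusted p = 0.806).

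Promoter windows are shown for the pair of members with the largest differences, Tlr1 and Myd88, and for Tlr2 and Tlr13, whose differences were small, so that their letters can be read side by side. They are RefSeq sequences of mouse build GRCm38.p6, 250 bases before to 50 bases after the annotated start, written 5′ to 3′ along the gene's strand. Capitals mark every match, on either strand, to GAGGAA (the core of sites of the myeloid factor PU.1), GGAAGT (a core of the wider ETS family), the core of interferon-stimulated response elements, the NF-kB motif or the glucocorticoid response element.
Tlr1, chr5:64933509-64933808, minus strand: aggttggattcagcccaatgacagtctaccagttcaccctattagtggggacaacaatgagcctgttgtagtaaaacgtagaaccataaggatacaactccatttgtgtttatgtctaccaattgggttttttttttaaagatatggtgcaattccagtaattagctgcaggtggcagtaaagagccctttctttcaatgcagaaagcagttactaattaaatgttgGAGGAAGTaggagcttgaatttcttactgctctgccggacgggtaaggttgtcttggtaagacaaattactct
Myd88, chr9:119339969-119340268, minus strand: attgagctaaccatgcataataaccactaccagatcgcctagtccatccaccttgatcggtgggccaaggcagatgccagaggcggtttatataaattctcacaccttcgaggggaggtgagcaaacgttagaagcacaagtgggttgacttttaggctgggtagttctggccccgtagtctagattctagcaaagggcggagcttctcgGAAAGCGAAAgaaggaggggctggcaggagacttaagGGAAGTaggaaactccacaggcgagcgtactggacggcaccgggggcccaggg
Tlr2, chr3:83841559-83841858, minus strand: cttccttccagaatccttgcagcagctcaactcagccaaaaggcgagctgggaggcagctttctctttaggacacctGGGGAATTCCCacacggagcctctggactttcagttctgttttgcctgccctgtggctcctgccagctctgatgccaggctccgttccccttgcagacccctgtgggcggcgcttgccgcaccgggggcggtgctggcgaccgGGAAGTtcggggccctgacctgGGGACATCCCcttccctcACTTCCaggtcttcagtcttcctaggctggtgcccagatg
Tlr13, chrX:106143025-106143324, plus strand: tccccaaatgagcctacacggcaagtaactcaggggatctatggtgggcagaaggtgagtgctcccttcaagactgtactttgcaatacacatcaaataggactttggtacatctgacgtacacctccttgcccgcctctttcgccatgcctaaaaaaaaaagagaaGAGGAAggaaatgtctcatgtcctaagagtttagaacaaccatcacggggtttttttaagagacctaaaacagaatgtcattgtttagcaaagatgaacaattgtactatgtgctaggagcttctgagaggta

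The Tlr1 window held GAGGAA from position -23 and GGAAGT from position -21 relative to the start, overlapping as one run of capitals, whereas the window of a second annotated Tlr1 start held none of the motifs. The Myd88 window held GGAAGT from position -3 and the interferon-stimulated core from position -40. The Tlr2 window, which had the only NF-kB motif matches among the members, held 5 of them counted over both strands, around positions -173 and -8, and GGAAGT at -30 and 10. The Tlr13 window held GAGGAA from position -83. Over all 32851 listed promoters of this length, 28.3% held GAGGAA, 23.8% GGAAGT, 8.46% the NF-kB motif, 3.44% the interferon-stimulated core and 0.222% the glucocorticoid response element, which none of the 9 windows of 7 members held. A match describes letters and is no evidence of binding, and the absence of one says only that the letters are not in this window. Windows of Tlr6, Tlr8 and Tlr9 were searched in the same way, and Tlr4 and Tlr7 have no entry.

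Other genes of the pathway were taken from lists by role. The 10 lists held 89 genes, of which 81 were measured and 70 tested. Of the 70, 48 had a lower (68.6%) and 22 a higher RST mean, where 67.6% of all tested genes had a lower one, with a median log2 fold change of -0.36 against -0.24 over all tested genes. Before adjustment, at the thresholds above, limma called 15 lower (21.4%) and 3 higher (4.29%), where 12.8% and 2.8% of all tested genes were called. Groups did not overlap in 8 of the 70 with lower RST values (11.4%), where the share over all tested genes was 6.57%. None passed after adjustment. The lists were chosen with earlier results of these data known, so these shares are a description without a test.

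Of the 6 tested co-receptor genes, 4 had a lower and 2 a higher RST mean, where 67.6% of all tested genes had a lower one. Before adjustment 2 were called lower and 1 higher, where 12.8% and 2.8% of all tested genes were called. Cd36, a scavenger receptor that presents lipids to TLR2 and TLR6, read 10.89, 10.96, 10.06 and 10.55 in RST mice 1 to 4, against 9.19, 9, 9.19 and 10.1 in control mice 1 to 4. Only control mouse 4 reached the lowest RST mouse, and the log2 fold change was 1.24 (SE 0.32, limma unadjusted p = 0.00249, adjusted p = 0.321). Ly86, which encodes MD-1, the partner of the TLR4-like receptor RP105 of B cells, read 7.72, 7.54, 7.81 and 7.49 in RST mice 1 to 4, against 8.8, 9.04, 8.48 and 8.02 in control mice 1 to 4. Every RST mouse lay below every control mouse, with a log2 fold change of -0.95 (SE 0.28, limma adjusted p = 0.321). Ly96, chosen after its values were seen, encodes MD-2, the lipopolysaccharide-binding partner of TLR4, and read 3.15, 2.98, 5.06 and 3.83 in RST mice 1 to 4, against 5.26, 5.95, 5.12 and 4.7 in control mice 1 to 4. Its groups overlapped only through RST mouse 3, with a log2 fold change of -1.51 (SE 0.45, limma unadjusted p = 0.00606, adjusted p = 0.321). Cd14, the co-receptor that hands lipopolysaccharide to MD-2 and was likewise chosen afterwards, varied widely in both groups and differed by 0.37 (SE 0.9).

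**Figure D4:**
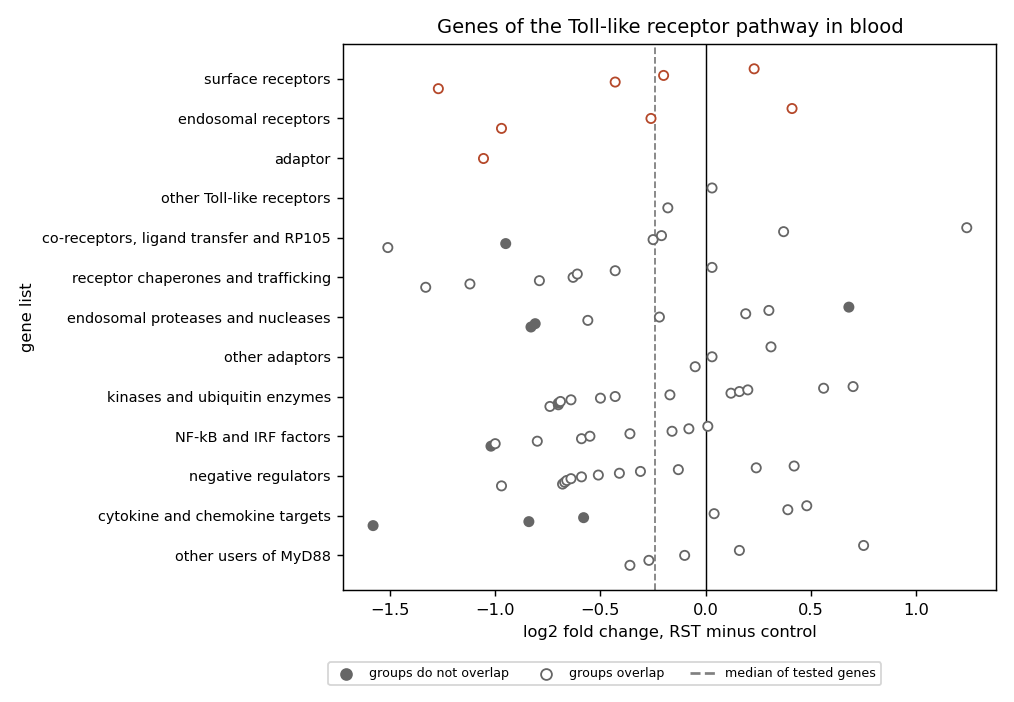
Log2 fold change, RST minus control, of the members (red) and of the 70 other tested pathway genes (grey), each at its brightest tested probe set, by list; filled points are genes whose groups do not overlap, and the dashed line is the median of all tested genes, -0.24. The lowest point is Ccl3 at -1.58 and the highest Cd36 at 1.24.

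Of the genes that fold receptors and carry them to the surface or the endosome, 6 of 7 had a lower RST mean and 2 were called lower before adjustment, where 67.6% of all tested genes had a lower mean and 12.8% were called lower. Cnpy4, a chaperone of surface TLRs, read 3.92, 5.18, 4.08 and 3.38 in RST mice 1 to 4, against 5.58, 5.75, 5.13 and 5.41 in control mice 1 to 4. RST mouse 2 alone overlapped the controls, as in Tlr1, and the log2 fold change was -1.33 (SE 0.37, limma unadjusted p = 0.0037, adjusted p = 0.321). Slc15a4, an endolysosomal transporter needed for TLR7 and TLR9 responses, read 4.02, 6.18, 5.48 and 4.31 in RST mice 1 to 4, against 6.73, 6.34, 5.72 and 5.7 in control mice 1 to 4. RST mouse 2 lay among the controls and the other 3 RST mice below them, in the order of Myd88. Its log2 fold change was -1.12 (SE 0.47). Unc93b1, which escorts endosomal receptors, and Hsp90b1, the chaperone of nearly all TLRs, were picked for their role with values already seen, and differed by -0.61 (SE 0.49) and -0.79 (SE 0.37).

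Of the 7 tested endosomal proteases and nucleases, 4 had a lower and 3 a higher RST mean, where 67.6% of all tested genes had a lower one. Groups did not overlap in 2 lower and 1 higher, against 6.57% and 2.37% of all tested genes. Ctss, encoding cathepsin S, read 9.78, 10.39, 10.4 and 10.23 in RST mice 1 to 4, against 11.08, 11.52, 10.9 and 10.53 in control mice 1 to 4. It was lower in every RST mouse, with a log2 fold change of -0.81 (SE 0.29). Ctsb, encoding cathepsin B, read 12.08, 12.25, 11.91 and 11.99 in RST mice 1 to 4, against 11.07, 11.21, 11.61 and 11.62 in control mice 1 to 4, higher in every RST mouse by 0.68 (SE 0.25). Its other probe sets did not share one sign, at 1.04, 0.23, -0.39 and -0.58. Dnase2a, a lysosomal nuclease that prepares DNA for TLR9, was lower without overlap at -0.83 (SE 0.34).

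Downstream of the receptors, 8 of 9 tested NF-kB and interferon regulatory factors had lower RST means, against 67.6% of all tested genes, and 3 were called lower before adjustment, against 12.8%. Irf3, a factor used by the MyD88-independent branch of TLR4, read 5.26, 6.04, 5.93 and 5.16 in RST mice 1 to 4, against 7.01, 6.89, 6.1 and 6.45 in control mice 1 to 4. All RST mice lay below all control mice, with a log2 fold change of -1.02 (SE 0.32, limma unadjusted p = 0.00754, adjusted p = 0.321) and -1.31, -0.82 and -0.09 on its other probe sets. Irf8, a factor of monocytes, dendritic cells and B cells, read 6.31, 6.87, 6.22 and 4.8 in RST mice 1 to 4, against 7.41, 7.39, 6.45 and 6.95 in control mice 1 to 4, overlapping through RST mouse 2, with a log2 fold change of -1 (SE 0.42). Of 13 tested genes of kinases and ubiquitin enzymes, 8 had a lower and 5 a higher RST mean, beside the same 67.6%. The kinase gene Ikbkb, whose product phosphorylates the inhibitor of NF-kB, was lower without overlap at -0.7 (SE 0.26). Its other probe sets gave -0.79, -0.71, -0.09 and 0.07. Tab3, an adaptor of the TAK1 kinase, had a log2 fold change of 0.7 (SE 0.27). Negative regulators had lower means in 10 of 12, again beside 67.6% of all tested genes, led by Sigirr at -0.97 (SE 0.42), which encodes an inhibitory receptor, and Nfkbia at -0.59 (SE 0.26), which encodes the inhibitor of NF-kB.

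Of the cytokine and chemokine genes that TLR signalling induces, 6 of 12 measured were tested. The chemokine genes Ccl3, Ccl4 and Ccl5 had lower RST means without overlap of the groups, as had 6.57% of all tested genes, and the other 3 had higher means, with log2 fold changes of 0.48 (SE 0.46) for Il1b, 0.39 (SE 0.25) for Il12b and 0.04 (SE 0.24) for Ptgs2. Ccl3, a chemokine of monocytes and NK cells, read 3.92, 4.85, 4.86 and 3.81 in RST mice 1 to 4, against 5.85, 6.29, 5.63 and 5.99 in control mice 1 to 4. Its log2 fold change was -1.58 (SE 0.32, limma unadjusted p = 0.000406, adjusted p = 0.321). The log2 fold change was -0.84 (SE 0.29) for Ccl5 and -0.58 (SE 0.27) for Ccl4. NK cell markers summed to 1050 to 1390 in RST mice and 1600 to 2710 in control mice, and T cell markers to 922 to 1690 in RST mice and 1690 to 2480 in control mice. Their mean log2 deviations from the control mean overlapped between the groups. These were -1.16 to -0.16 in RST and -0.54 to 0.34 in control mice for NK cells, and -1.3 to -0.26 and -0.29 to 0.29 for T cells. Before adjustment 3 of 5 tested NK cell markers and 5 of 8 tested T cell markers were called lower, beside 12.8% of all tested genes. The part of these cells in the chemokine values was not tested. The other Toll-like receptors, other adaptors and other users of MyD88 had no gene past the unadjusted threshold, with Tlr12 at -0.18 (SE 0.28), Tlr3 at 0.03 (SE 0.4), Sarm1 at 0.31 (SE 0.25), Pik3ap1 at -0.05 (SE 0.29), Il1r2 at 0.75 (SE 0.6) and Il1r1 at -0.36 (SE 0.35). RST means were lower in 1 of 2, 1 of 3 and 3 of 5 tested genes of these lists, where 67.6% of all tested genes had a lower one.

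The genes whose levels ran most like each member over the 8 arrays were read from Pearson's r with the other 11761 tested genes, as a description over arrays that share their groups and their scaling. Tlr1 ran most like Orc3 (r = 0.99) and Gimap9 (0.989), and Myd88 most like Xdh (0.993) and 4921524J17Rik (0.992). Tlr7 ran most like Hdac9 (0.989) and Ammecr1l (0.988), and Tlr13 most like Pfkfb4 (0.974) and Capn2 (0.973). For the other surface receptors the closest were Map3k20 (0.972) and Fam133b (0.97) with Tlr2, Grm7 (0.981) and Defb6 (0.957) with Tlr4, and Nuak2 (0.979) and Mtx3 (0.975) with Tlr6. Tlr9 ran most like Foxm1 (0.969) and Asphd2 (0.965). No 2 members had a closest gene in common.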

How the data were processed

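RNA of whole blood from 4 RST and 4 control mice was hybridised to Mouse430_2 GeneChips, 1 per mouse. Values were deposited by the authors as log2 expression of each probe set, made from the scans by background correction, normalization and summary. The labels name RMA, Partek and Affymetrix Expression Console (version 1.2.0.20), and the methods name a form of RMA named GSRMA in Partek Genomic Suite. Which form made the table is not settled, and neither presence calls nor scan dates are in it, so array batches could not be examined beyond the hybridization controls. Summaries of this kind shrink differences of dim probe sets, and the number of arrays limits precision. No values were renormalized for the main results.

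Probe sets were named from the platform annotation, updated through Entrez identifiers: 34958 named 1 gene, 932 several and 9211 none. The 64 control probe sets were left out, and a probe set was tested if it exceeded the median of its array in at least 2 of the 4 arrays of a group, which left 25084. The groups were set against each other without covariates in limma (3.58.1, under R 4.3.3), and p-values were adjusted after Benjamini-Hochberg over all tested probe sets; a call needed an adjusted p under 0.05 and more than 1.5-fold. A gene was read at its brightest tested probe set, or at its brightest probe set where none was tested. Single genes were also compared by a two-sided exact permutation test. Fold changes are RST minus control on the log2 scale. On simulated data with 25084 probe sets and this design, 0% of genes changed 2-fold, 18% changed 3-fold and 50% changed 4-fold passed the adjusted threshold. Noise was drawn independently for each probe set and 50 probe sets were changed at each fold. Shifts shared by whole arrays were left out, so these shares may not hold for the real arrays.

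Named were all members with all probe sets, the 2 pathway genes of each list with the smallest unadjusted p and the next where its groups did not overlap, the 2 genes most like each member, and genes said to be chosen after their values were seen. The members and lists were chosen with earlier results of these data known. Alternatives covered filters, scaling, array weights, the prior, the methods' unmoderated test, hybridization controls and each mouse left out. Plots were made in Python 3.11.15 (matplotlib 3.10.9).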

Additional observations from a re-analysis of the deposited data

Results flagged for a closer look

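In 3 of 28 groups of 4 mice, 1 mouse stood so far from the others that the gap to its nearest neighbour, as a share of the group's range, exceeded Dixon's critical value at the 95% level; chance alone marks about 1 in 20 groups. All 3 were RST mice and each was another animal. On Tlr6 probe set 1421352_at RST mouse 2 read 4.67 (share 0.844), on Tlr7 probe set 1419848_x_at RST mouse 3 read 4.39 (share 0.83), and on Tlr4 probe set 1442827_at, below the filter, RST mouse 1 read 2.65 (share 0.867).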

How the results depend on the processing

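Of the 8 tested genes, 4 (Tlr1, Tlr7, Tlr9 and Myd88) kept their sign under every alternative in which they were tested and 4 did not, and no member passed after adjustment under any alternative run. Tlr9 was tested in only 17 alternatives and in 6 of the 8 that left out 1 mouse. It fell below the filter without RST mouse 3, without RST mouse 4 and under the stricter filter, so its sign was not examined there. Tlr1 ranged from -1.6 to -0.75 and passed the unadjusted threshold in 18 of 21 alternatives, including all 8 that left out 1 mouse. It did not pass in the methods' unmoderated test, with the hybridization covariate or without control mice 1 and 2. Tlr7 passed in 6 of 22 at its brightest probe set and in 9 of 21 at 1419848_x_at, and Myd88 in 1 of 21. Sign changes occurred in Tlr2 (-0.02 without RST mouse 2, -0.05 without control mouse 4; 0.52 without RST mouse 4 and up to 0.86, without control mice 1 and 2), Tlr4 (0.09 with array weights, 0.14 without RST mouse 2; down to -1.07 without RST mouse 1), Tlr4 probe set 1418163_at (0.14 with the array median subtracted, 0.42 with the hybridization covariate, 0.25 without control mouse 2, 0.51 without control mice 1 and 2; down to -0.5 without control mouse 4), Tlr6 (0.07 with the array median subtracted, 0.07 with the covariate, 0.02 without RST mouse 4; down to -0.67 without RST mouse 2) and Tlr13 (0.06 after quantile normalization, 0.01 with the array median subtracted, 0.08 without RST mouse 4, -0.57 without RST mouse 2, 0.21 with both quantile normalization and no RST mouse 4). The endosomal median was 0.28 with the array median subtracted and -0.26 without Tlr8. With single mice left out, the surface median ran from -0.58 to -0.11, the endosomal median from -0.12 to 0.11 and their difference from -0.69 to -0.18. Over all alternatives the surface median ran from -0.58 to -0.05 (with the array median subtracted) and the difference from -0.69 to -0.06 (without Tlr8). Over all probe sets, the 3337 unadjusted calls became 5539 with array weights, 2091 with the hybridization covariate, 856 without control mice 1 and 2, and 1731 to 4933 with single mice left out (fewest without control mouse 1, most without RST mouse 2). A trended and robust prior gave 35 adjusted calls in place of 0, none of them a member. The share of calls that were lower in RST was 78.3%, and 52.9% after quantile normalization, 33.4% with the array median subtracted, 94.1% with scaling to control probe sets, 53.5% without RST mouse 4 and 45.3% after quantile normalization without it; scaling to control probe sets moved the median log2 fold change of all probe sets to -0.4. The replicate numbers pair no animals: same-numbered mice deviated together with r of -0.245, 0.422, 0.0463 and 0.2. With the number as a block, 4234 probe sets were called unadjusted and Tlr1 stood at -1.27 (limma, adjusted p = 0.225). The cause of these changes was not tested. Signal near the array median limits Tlr6 and Tlr9, and signal far below it limits Tlr8.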
